A study of Cucumis melo with 4 samples.

Results

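Of the 5493 CmNOR peaks listed for the melon genome, 404 were classed as distal intergenic and lay more than 30 kb from the start of the gene they were assigned to. These 404 gene-desert peaks make up 7.35% of the list (95% exact Clopper-Pearson interval 6.68 to 8.08) and 15.8% of its 2563 distal intergenic peaks (14.4 to 17.2), and were assigned to 190 of the 4510 genes named in the list. They were chosen by location class and distance alone, so the distance to a gene is a property of the choice and not a finding. Intervals here and below cover counting error only, and neighbouring peaks are not independent of each other.

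CmNOR, a melon (Cucumis melo) transcription factor of the NAC family, takes its name from NON-RIPENING, a tomato gene that acts in fruit ripening. Its sites were mapped by DAP-seq, which incubates naked genomic DNA fragments with a tagged protein purified from E. coli and sequences the fragments that stay bound. The 4 libraries comprise 2 with MBP-His-CmNOR, that is CmNOR carrying a maltose-binding protein and His tag, and 2 negative controls with the MBP-His tag alone. The values are 1 combined list of peak positions with no column for any library and neither an enrichment nor a p-value for a peak, so library depth is unknown, MBP-His-CmNOR was not compared with the MBP-His tag, and the repeats were not compared with each other.

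NAC proteins are plant transcription factors with a conserved DNA-binding domain, and those of the NON-RIPENING type act on genes of ripening fruit. Plant genomes hold long stretches with few genes, often around centromeres and rich in transposable elements, which are packed into closed chromatin in the nucleus. DAP-seq uses DNA stripped of chromatin, so closed chromatin does not keep the protein from such stretches. A peak far from genes is a site called from DNA in the tube and not in the nucleus. Whether CmNOR or the tag held that DNA was not compared here. No genome sequence was used here, so peaks are described by position and not by motif. Positions are those of the authors' list, for which no source used here names a build.

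The desert peaks lay from 30150 to 547466 bp from the assigned gene start, with a median of 83565 bp. Of the 404 peaks, 100 lay 30 to 40 kb away, 39 at 40 to 50 kb, 80 at 50 to 100 kb and 75 at 100 to 200 kb. A further 58 lay at 200 to 300 kb, 30 at 300 to 400 kb and 22 beyond 400 kb, so 27.2% of them (22.9 to 31.8) were more than 200 kb from the assigned gene start. Just inside the limit were peaks 30150, 30316 and 30451 bp from the starts of MELO3C028854.2, annotated with transaminase activity, MELO3C012541.2 and MELO3C029145.2, all on chromosome 1. Just outside it were peaks 29883, 29915 and 29929 bp from the starts of MELO3C016420.2, MELO3C024102.2, a protein kinase gene, and MELO3C008933.2.

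The description "over 30 kb from genes" held for most but not all of the peaks once gene bodies were counted. Of the 404, 382 were more than 30 kb from both edges of every gene named in the list, and 22 lay 7071 to 29819 bp from a gene edge. In 19 of those 22, the peak lay past the end of the assigned gene and the gene body itself filled part of the distance. The closest was a peak on chromosome 4 at 22353887 to 22354380, which lay 35587 bp from the start of MELO3C026663.2 but 7071 bp from that gene's end, the gene being 28517 bp long. A peak at 16301054 to 16301503 of chromosome 11 lay 54052 bp from the start and 10563 bp from the end of MELO3C013507.2, a gene of 43490 bp. Genes without an assigned peak are not in the list, so the distances to gene edges are upper limits.

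Desert peaks lay upstream of the assigned gene more often than past it, in a share close to that of other intergenic peaks. Of the 404, 258 were upstream (63.9%, 59.0 to 68.6) and 146 downstream. The share upstream was 59.3% (56.0 to 62.4) of the 935 distal intergenic peaks at 10 to 30 kb and 65.7% (63.0 to 68.3) of the 1224 at 3 to 10 kb. Counted by gene, 113 of the 190 genes had upstream desert peaks (59.5%, 52.1 to 66.5), 77 had downstream ones and 0 had both.

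**Figure D1:**
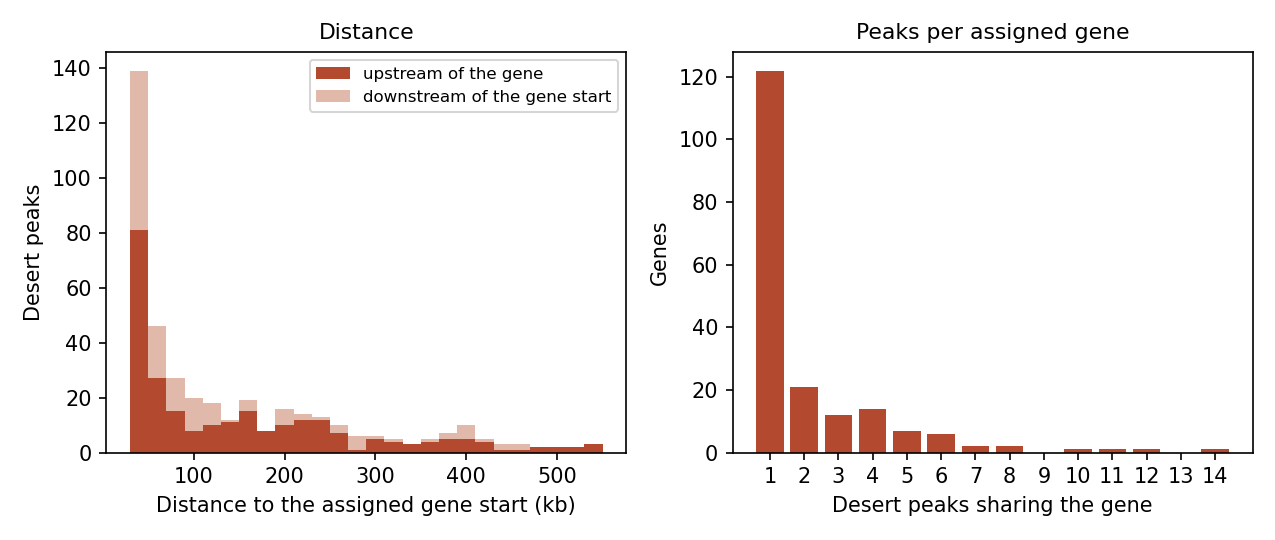
Left, number of desert peaks by distance to the assigned gene start in kb, in bins of 20 kb from 30 kb, with peaks upstream of the gene in dark and those downstream of the gene start in pale colour. Right, number of genes by how many desert peaks share them; 122 genes had 1 and a single gene had 14.

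Most desert peaks shared their assigned gene with another desert peak. Peaks far from any other gene start go to the same gene, so the choice favours such sharing. No such share was counted for other peaks. In all, 122 genes had 1 desert peak and 68 had 2 or more, and those 68 genes accounted for 282 of the 404 peaks (69.8%, 65.1 to 74.2). The 21 genes with 5 or more held 148 peaks (36.6%, 31.9 to 41.5). Peaks of 1 run lay on 1 side of the gene in all 68 runs, upstream in 48 and downstream in 20. The 214 gaps between neighbouring peaks of a run had a median of 28634 bp and ranged from 306 to 221262 bp, with 6 under 1 kb, 33 under 5 kb and 199 under 100 kb.

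The longest run had 14 desert peaks upstream of MELO3C033108.2 on chromosome 8, a gene of 264 bp without a GO term. Its peaks spanned 456 kb, began 56778 bp and ended 512915 bp from the gene start, and were 319 to 851 bp wide with a median of 366.5 bp. The next had 12 peaks past the end of MELO3C003905.2 on chromosome 5, a glycine-tRNA ligase gene, whose product loads glycine onto its tRNA for protein synthesis. They lay 33339 to 457370 bp from its start, over 424 kb. The third had 11 peaks past MELO3C005063.2 on chromosome 9, annotated to the TFIIIB complex, a general factor of RNA polymerase III, at 30933 to 400502 bp. The fourth had 10 peaks upstream of MELO3C009990.2 on chromosome 4, a gene of 168 bp without a GO term, at 126529 to 392751 bp. None of the first 3 genes had any other peak in the list, while MELO3C009990.2 had 1 more, 2635 bp upstream of its start.

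Runs of 8 peaks belonged to MELO3C034904.2 on chromosome 11, without a GO term (107461 to 411729 bp), and MELO3C017537.2 on chromosome 7, annotated with DNA and zinc ion binding (45281 to 254473 bp). Runs of 7 belonged to MELO3C031463.2 on chromosome 5, without a GO term (44120 to 442885 bp), and MELO3C033731.2 on chromosome 9, annotated to monopolar cell growth (84008 to 372037 bp). MELO3C035678.2, an RNA modification and endonuclease gene, and MELO3C002872.2, a gene of the defense response to bacteria, had 6 each, both on chromosome 12 and with the longest spans among the 6 genes with that number. The distances were 86835 to 433834 bp for MELO3C035678.2 and 155713 to 486862 bp for MELO3C002872.2. The same number was reached by the membrane protein gene MELO3C029454.2 on chromosome 2, the steroid dehydrogenase gene MELO3C011497.2 on chromosome 3, MELO3C035155.2 on chromosome 11, without a GO term, and the threonine-tRNA ligase gene MELO3C022873.2 on chromosome 10, over shorter spans.

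The assigned gene start is taken here as the nearest one. Each desert peak then marks a stretch free of gene starts, reaching as far to either side as its distance. In 0 of 5493 rows did any gene start in the list lie nearer than the assigned one. Genes without an assigned peak are not in the list, so none of them could be checked. Joining the stretches that overlapped gave 145 blocks with no listed gene start inside. They made up 27.6 Mb, or 7.08% of the 390 Mb spanned by the listed peaks. Blocks were 60.8 to 1159 kb long with a median of 88.3 kb. In 45 blocks the peaks were assigned to 2 genes, whose starts bound the block on both sides. In the other 100 they shared 1 gene, so the block is bounded by a gene start on 1 side. Its length is then a minimum, except for the chr0 block that begins at position 1. A block can take in the body of a gene that points into it. A total of 84 blocks held 1 desert peak, whereas 25 held 5 or more and took in 232 of the 404 peaks (57.4%, 52.4 to 62.3). The 10 blocks with 10 or more held 139 peaks (34.4%, 29.8 to 39.3) and lay on 9 chromosomes.

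Blocks longer than 500 kb numbered 18 and were found on 11 of the 12 numbered chromosomes. They held 185 desert peaks (45.8% of the 404, 40.9 to 50.8), between 4 and 19 each. In each of the 18, the peaks were split between 2 genes, those nearer the left end going to the gene there and those nearer the right end to the other. A run sharing a gene is therefore 1 side of such a block, and the runs of MELO3C031463.2 and MELO3C003905.2 are the 7 and 12 peaks of a single block of 1028 kb on chromosome 5. Of the 36 genes at the ends of these blocks, 27 pointed out of the block, with their start facing it, and 9 pointed into it. Both genes pointed outward in 11 blocks and inward in 2. The 36 genes were 168 to 44442 bp long with a median of 2224 bp, and 27 carried a GO term.

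The longest block ran from 7340621 to 8499163 of chromosome 8, 1159 kb, between MELO3C008067.2 and MELO3C033108.2, neither with a GO term. It held 19 desert peaks and no other peak, 5 assigned to MELO3C008067.2 and 14 to MELO3C033108.2, or 16.4 peaks per Mb. The block of 1137 kb on chromosome 12, at 18068491 to 19205203 between MELO3C035678.2 and MELO3C002872.2, held 12 desert peaks among 14 peaks, 12.3 per Mb. A block of 1040 kb on chromosome 7, at 16870104 to 17909753, held 8 desert peaks among 9, or 8.66 per Mb. Its end genes were MELO3C032745.2, a transaminase gene, and MELO3C024880.2, a gene of the exocyst, which tethers secretory vesicles to the plasma membrane.

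The chromosome 5 block, at 19278468 to 20306733, held 19 desert peaks among 20, or 19.5 per Mb. On chromosome 9, the block at 15661412 to 16482502 (821 kb) between MELO3C033731.2 and MELO3C005063.2 held 18 peaks, all of them desert peaks, at 21.9 per Mb. On chromosome 11, the block at 26236116 to 27141063 (905 kb) held 14 peaks, likewise all desert peaks, at 15.5 per Mb. On chromosome 4, a block of 805 kb at 26631137 to 27435718, between the protein kinase gene MELO3C026577.2 and MELO3C009990.2, held 14 desert peaks among 17. Chromosome 2 had a block of 824 kb at 4671330 to 5495407 with 10 desert peaks. It lay between MELO3C029433.2, annotated with zinc ion binding, and the membrane protein gene MELO3C029454.2.

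Chromosome 3 had 2 blocks with 10 desert peaks near each other. The block of 636 kb at 24928692 to 25565079 lay between MELO3C026561.2, a flavin-dependent monooxygenase gene, and MELO3C011497.2, a steroid dehydrogenase gene. The other, of 496 kb, lay at 23832982 to 24328743 between MELO3C030282.2 and MELO3C026562.2. The median width of the 10 peaks between MELO3C026561.2 and MELO3C011497.2 was 515 bp, the highest among the 25 blocks with 5 or more desert peaks, whose medians ran from 355 to 515 bp.

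**Figure D2:**
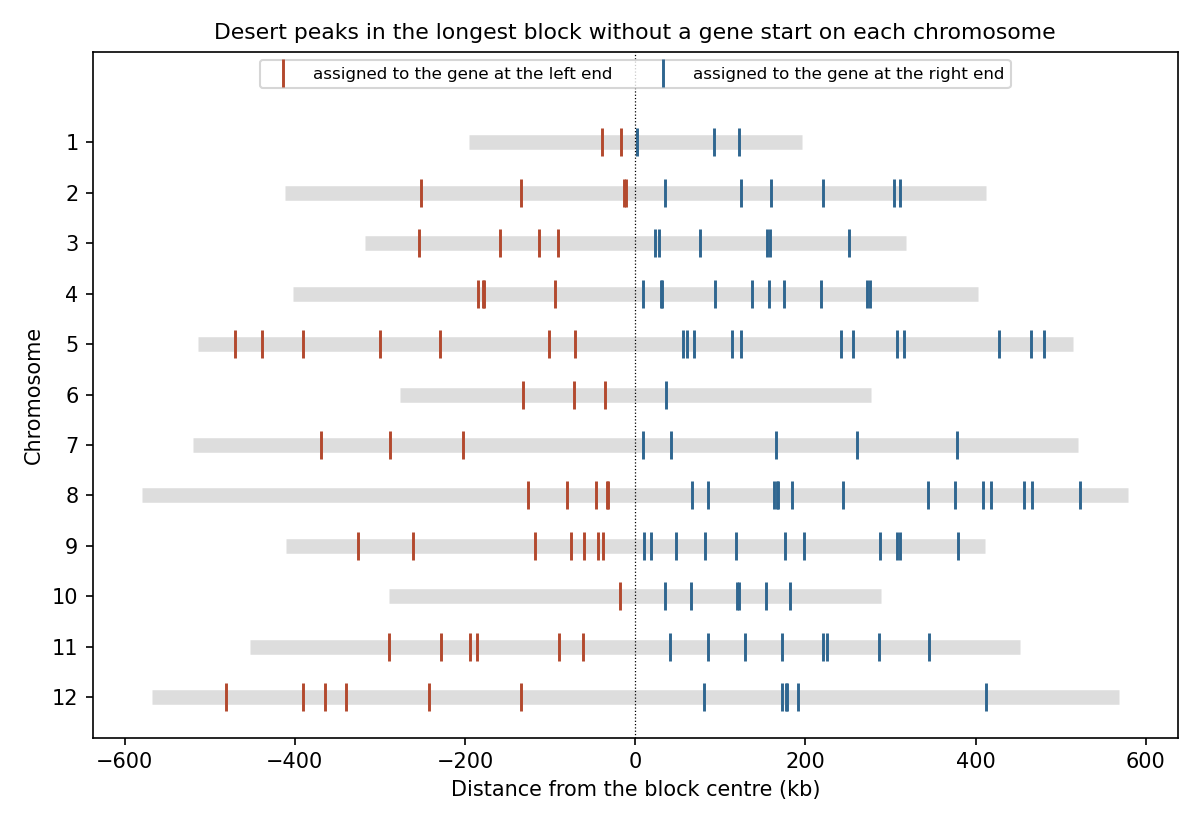
Desert peaks (ticks) in the longest block without a listed gene start on each of the 12 numbered chromosomes (grey bars), by distance from the block centre in kb. Red ticks were assigned to the gene at the left end and blue ticks to the gene at the right end, and the assignment changes at the centre in all 12; the bars run from 391 kb on chromosome 1 to 1159 kb on chromosome 8.

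Peaks were about as dense inside the long blocks as over the whole list. The 18 blocks longer than 500 kb held 198 peaks of any class in 13.4 Mb, or 14.8 per Mb, with a range of 7.23 to 21.9 per Mb among blocks, against 14.1 per Mb over the 390 Mb of the whole list. The 4 blocks longer than 1000 kb held 62 peaks, or 14.2 per Mb. Blocks were defined by holding at least 1 desert peak, so stretches without genes and without a desert peak are not counted. The whole list takes in chr0, sparser in peaks with 154 over 35.3 Mb, while the 18 blocks lie on numbered chromosomes. The comparison is a description with no test.

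Desert peaks were found on all 13 sequences, at unequal shares. The share of a chromosome's peaks that were desert peaks was highest on chromosome 3, with 54 of 472 (11.4%, 8.71 to 14.7), and chromosome 8, with 46 of 454 (10.1%, 7.51 to 13.3). It was lowest on chromosome 4, with 17 of 530 (3.21%, 1.88 to 5.09), and chromosome 2, with 15 of 427 (3.51%, 1.98 to 5.73). Chromosome 12 had 20 of 403 (4.96%) and chromosome 10 had 24 of 396 (6.06%). The other 6 numbered chromosomes lay between 6.92% on chromosome 1 and 8.91% on chromosome 7. The sequence named chr0 had 13 of 154 (8.44%, 4.57 to 14.0). On chromosome 4, 14 of the 17 desert peaks fell in the 1 block described above.

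The densest 1 Mb of each of the 5 chromosomes with most desert peaks took in all desert peaks of such a block. On chromosome 8 it held 19 desert peaks (41.3% of that chromosome's), on chromosome 11 it held 16 (37.2%) and on chromosome 7 it held 13 (37.1%). On chromosome 3 it held 10 (18.5%) and on chromosome 6 it held 8 (19.0%), the desert peaks of chromosome 6 being spread over several blocks, among them those of 426 to 553 kb.

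Few desert peaks lay in the first 20% of the chromosomes. Of the 391 desert peaks on numbered chromosomes, 14 were in the first 20% of the span that ends at the last listed peak (3.58%, 1.97 to 5.93). The middle 60% held 274 (70.1%, 65.3 to 74.6) and the last 20% held 103 (26.3%, 22.0 to 31.0). All peaks were evenly divided between both ends, with 1249 in the first 20% (23.4%) and 1235 in the last 20% (23.1%). The middle 60% held 53.5% of all peaks. In the last 20% the share of desert peaks was thus near that of all peaks, and in the middle it was higher. Other distal intergenic peaks were not counted in this way. The desert peaks of the first 20% came from 4 chromosomes, with 6 each on chromosomes 2 and 11 and 1 each on chromosomes 1 and 9. The last 20% held more desert peaks than the first on 8 chromosomes, fewer on 2 (chromosomes 2 and 9) and 0 at both ends on chromosomes 5 and 12. Counted by block the contrast was weaker, with 18 of the 136 blocks on numbered chromosomes centred in the last 20% and 7 in the first 20%. Of the 18 blocks longer than 500 kb, 6 were centred in the last 20% and 1 in the first 20%. In the first 20%, 8 of the 14 desert peaks lay in shorter blocks. The asymmetry was noticed in these data and was not tested.

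In steps of 10% of the span, desert peaks were 0.605% of the 661 peaks at 0 to 10% and 1.70% of the 588 at 10 to 20%. Their share was highest at 20 to 30%, where 70 of 505 peaks (13.9%) on 10 chromosomes were desert peaks, and at 60 to 70%, with 57 of 472 (12.1%). It was 7.24% at 50 to 60% and 6.12% at 90 to 100%.

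**Figure D3:**
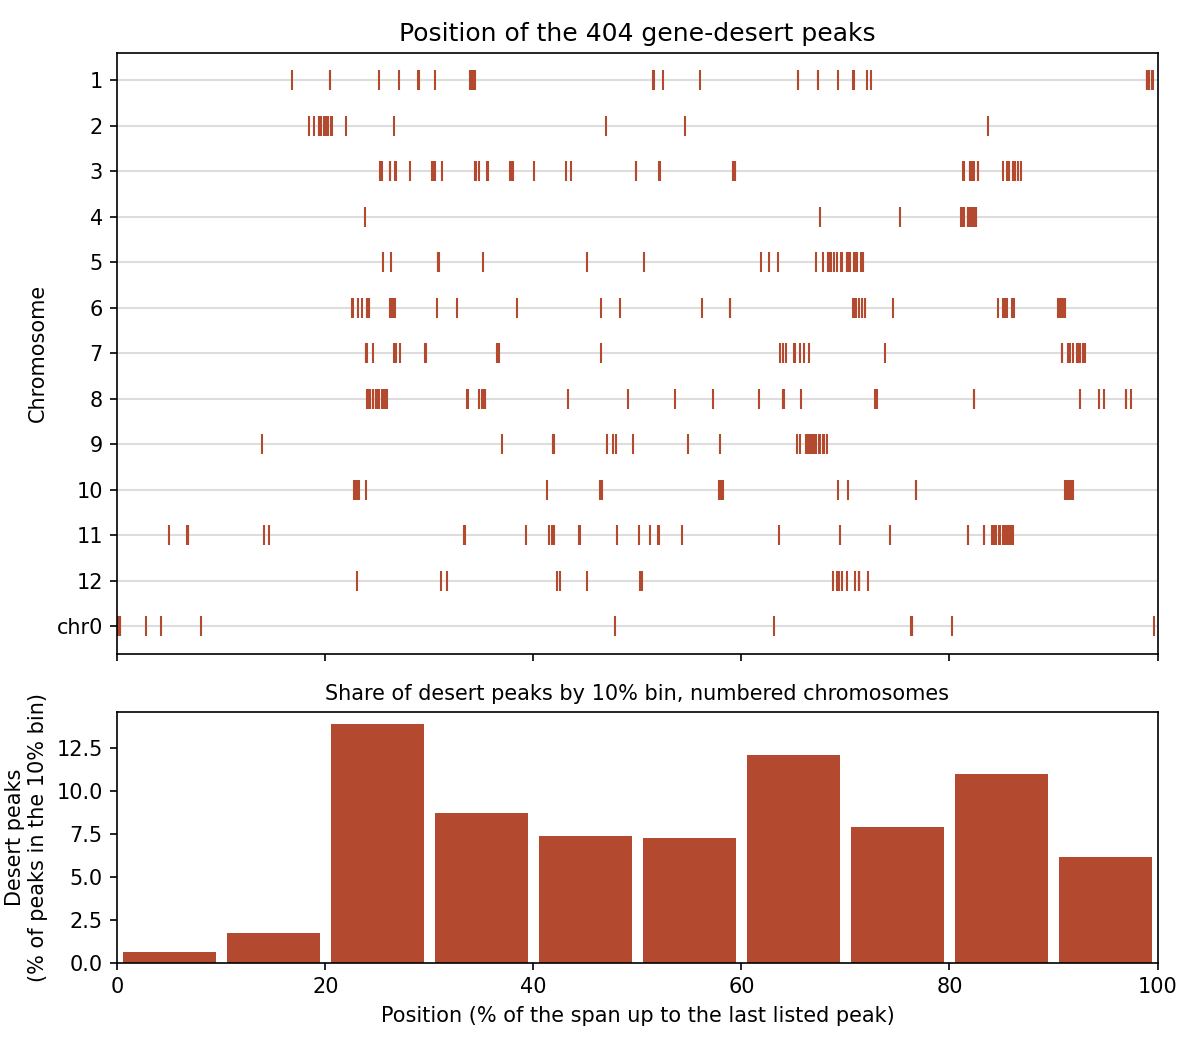
Top, position of each of the 404 desert peaks (ticks) as a percentage of the span that ends at the last listed peak, by chromosome. Bottom, desert peaks as a percentage of all peaks in each 10% of the span, over the 12 numbered chromosomes; the first 2 bars are at 0.605% and 1.70%, the bar at 20 to 30% at 13.9%.

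The distance of desert peaks from the chromosome ends did not differ from that of other distal intergenic peaks beyond the spread between chromosomes. The median distance to the nearer end was 25.5% ± 5.26 of the span for desert peaks and 28.5% ± 2.42 for other distal intergenic peaks (SD, n = 12 chromosomes). The difference of -3.05 ± 6.08 percentage points was negative in 8 of 12 chromosomes and ran from -12.2 on chromosome 4 to 5.81 on chromosome 9 (exact sign-flip permutation test over chromosomes, two-sided, p = 0.111, adjusted p = 0.333 over 3 comparisons). With a limit of 50 kb the difference was -4.79 percentage points and passed (exact permutation, adjusted p = 0.0425), and with 1 value per block it turned to 3.99 (exact permutation, adjusted p = 0.0747). It also turned against all other peaks (4.48) and at a limit of 20 kb (0.442), so no direction is drawn from it.

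The width of desert peaks did not differ from that of other distal intergenic peaks beyond the spread between chromosomes. They were 298 to 1035 bp wide with a median of 421 bp, the middle 50% running from 365 to 479 bp. The other 2159 distal intergenic peaks had a median of 414 bp, with a middle 50% from 350 to 498 bp and a maximum of 1765 bp. Over the 12 numbered chromosomes the median width was 419 ± 19.0 bp for desert peaks and 415 ± 11.4 bp for the others (SD, n = 12 chromosomes). The difference of 3.83 ± 19.2 bp was positive in 7 of 12 chromosomes and ran from -17 to 47 bp (two-sided exact sign-flip permutation test, p = 0.532, adjusted p = 0.744). Without chromosome 2 the difference was -0.0909 bp. A p that misses the threshold does not show that the widths are alike.

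Width changed little with distance among the desert peaks themselves. The median was 419 bp for the 139 peaks under 50 kb from the gene start, 415 bp for the 80 at 50 to 100 kb, 438 bp for the 75 at 100 to 200 kb and 415.5 bp for the 110 at 200 kb or more. It was 414 bp for the 84 peaks alone in their block, 405 bp for the 88 in blocks of 2 to 4 and 426 bp for the 232 in blocks of 5 or more. Upstream peaks had a median of 416.5 bp and downstream peaks 426 bp. These values are descriptions with no test.

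Peaks of 700 bp or more numbered 19 of the 404 desert peaks (4.70%), against 80 of the 2159 other distal intergenic peaks (3.71%), and only 1 desert peak reached 1000 bp. That widest one, 1035 bp at 10254317 to 10255351 of chromosome 1, lay 34234 bp from the start of MELO3C028917.2, a gene of intracellular protein transport, and ranked 25 in the whole list. The next was 985 bp wide, 109617 bp upstream of MELO3C032958.2 on chromosome 8. The chromosome 5 block held the following 2, of 980 bp (48660 bp from MELO3C003905.2) and 968 bp (412733 bp from MELO3C031463.2). Others were 929 bp upstream of MELO3C008484.2 on chromosome 3, 851 bp in the run of MELO3C033108.2, 846 bp in that of MELO3C034904.2 and 818 bp in that of MELO3C005063.2. The last 2 of the 10 widest were 817 bp on chr0, beside the peptidase gene MELO3C027591.2, and 784 bp on chromosome 3, upstream of MELO3C011497.2. Of these 10, 8 lay in blocks with 6 or more desert peaks, as did 207 of all 404 (51.2%, 46.2 to 56.2).

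The peaks farthest from a gene start were narrow to average in width. The farthest, 322 bp wide at 7888086 to 7888407 of chromosome 8, lay 547466 bp upstream of MELO3C008067.2, with a neighbour of 311 bp at 545922 bp and another of 364 bp at 532952 bp. The same block held peaks of 342 bp and 380 bp at 512915 and 494189 bp from MELO3C033108.2, and 1 of 429 bp at 498702 bp from MELO3C008067.2. On chromosome 7, peaks of 426 and 392 bp lay 510372 and 478049 bp upstream of the exocyst gene MELO3C024880.2. The last 2 of the 10 farthest lay 486862 bp from MELO3C002872.2 (445 bp wide) and 457370 bp from MELO3C003905.2 (432 bp wide).

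The spacing of desert peaks did not differ from that of other distal intergenic peaks beyond the spread between chromosomes. The median distance from a desert peak to the nearest other peak of any class was 22070 bp, with a middle 50% from 9397 to 44567 bp, against 23456 bp (9944 to 49808 bp) for other distal intergenic peaks. Over the 12 chromosomes the medians averaged 23958 ± 8134 bp for desert peaks and 23048 ± 4030 bp for the others (SD, n = 12 chromosomes). The difference of 910 ± 9372 bp was positive in 6 of 12 chromosomes and ran from -14062 bp on chromosome 8 to 17486 bp on chromosome 2 (two-sided exact sign-flip permutation test, p = 0.744, adjusted p = 0.744). Without chromosome 2 it was -597 bp. With 1 value per block in place of 1 per peak it was 8680 bp and passed (exact permutation, adjusted p = 0.0352), 84 of the 145 blocks being those of a single desert peak.

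**Figure D4:**
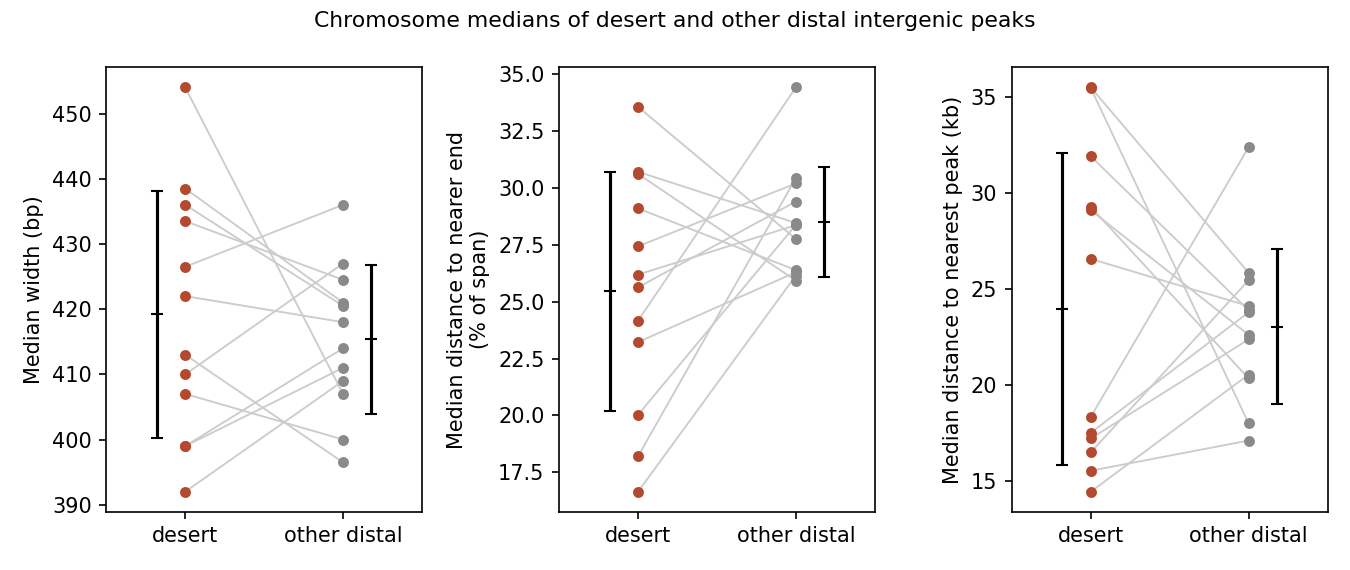
Chromosome medians (points, n = 12 numbered chromosomes, lines join the same chromosome) of desert peaks and other distal intergenic peaks for width in bp, distance to the nearer chromosome end in % of the span and distance to the nearest peak in kb; black marks are the mean ± SD. The axes do not start at 0. The medians of both classes overlap in all 3 panels, and those of desert peaks spread more. Each desert median rests on fewer peaks (15 to 54, against 124 to 206), and how far this sets the wider spread was not tested.

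Close pairs occurred among desert peaks at a share near that of other peaks. Within 5 kb of another peak were 67 of 404 desert peaks (16.6%, 13.1 to 20.6), against 331 of 2159 other distal intergenic peaks (15.3%, 13.8 to 16.9). Within 1 kb the shares were 2.97% (1.54 to 5.13) of desert peaks and 3.75% (2.99 to 4.64) of the others. The closest pair lay 306 bp apart on chromosome 7, at 24286652 to 24287017 and 24287324 to 24287751, about 50 kb upstream of the membrane protein gene MELO3C016410.2. On chromosome 4, 2 peaks 479 bp apart lay 371410 and 370522 bp from MELO3C009990.2, and 2 others 623 bp apart lay 223113 and 224073 bp from the kinase gene MELO3C026577.2, in the same block. On chromosome 11, a pair 554 bp apart lay beside MELO3C019611.2, a DNA glycosylase gene of base-excision repair, and a pair 666 bp apart beside MELO3C034900.2. The most isolated desert peak was 358607 bp from its nearest neighbour and was assigned to MELO3C001427.2. It lay on chr0, the sequence sparser in listed peaks (154 over 35.3 Mb).

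The 190 desert genes were shorter by median than the other genes in the list, and more of them had no GO term. They had a median length of 1338 bp, against 2728 bp for the other 4320 genes in the list. Of the 190, 55 were under 500 bp (28.9%, 22.6 to 36.0), against 762 of the other 4320 (17.6%, 16.5 to 18.8). No GO term was given for 60 of the 190 (31.6%, 25.0 to 38.7), against 1044 of the others (24.2%, 22.9 to 25.5). Of the 36 end genes of the blocks longer than 500 kb, 5 were under 500 bp and 9 had no GO term. The other 4320 genes are in the list through peaks other than desert peaks, those within gene bodies among them. How far these different routes into the list set the differences was not measured. These differences were chosen after the data were seen and were not tested.

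GO terms were counted over 12 keyword lists. Of the 130 desert genes with a term, 15 were annotated with DNA binding or transcription (11.5%), against 11.5% of all 3406 genes with a term, and 7 with ubiquitin or proteolysis (5.38% against 6.14%). Transport had 10 (7.69% against 8.40%), protein kinases or phosphorylation 5 (3.85%, 1.26 to 8.75, against 7.69%) and oxidation-reduction 12 (9.23% against 6.84%). RNA terms were carried by 15 (11.5%, 6.60 to 18.3), against 216 of the 3406 (6.34%, 5.55 to 7.21), and translation or ribosome terms by 8 (6.15%, 2.69 to 11.8, against 3.76%). Through long runs, the RNA list took in 52 desert peaks and the translation list 27, among them the runs of MELO3C003905.2 and of the threonine-tRNA ligase gene MELO3C022873.2. The RNA list also took in genes with RNA polymerase terms, which the DNA binding or transcription list counted too. These were MELO3C005063.2, with 11 desert peaks, MELO3C027101.2, MELO3C031651.2 and MELO3C016416.2. The lists overlap, and the counts are descriptions with no test.

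Terms for hormones and the cell wall, both with roles in ripening, were carried by 3 and 2 desert genes. These are too few to show whether the shares match those of the list. The hormone list had 3 members (2.31%, 0.478 to 6.60, against 2.38% of all). They were the abscisic acid response gene MELO3C034428.2 (peak 31366 bp from its start), the gene MELO3C018394.2, annotated as an abscisic acid-binding phosphatase inhibitor (38139 bp), and the auxin response gene MELO3C020752.2 (37174 bp). The cell wall and pectin list had 2 (1.54%, 0.187 to 5.45, against 1.41%). They were the wall structural gene MELO3C023678.2, with 2 peaks at 67537 and 69960 bp, and the pectinesterase inhibitor gene MELO3C034829.2 at 67191 bp. Keywords for carbohydrate, sugar and starch matched 2 genes (1.54%, 0.187 to 5.45, against 3.55%). Among these was MELO3C025960.2, a kinase gene of the response to sucrose, at 49842 bp. The keywords did not take in MELO3C006984.2, annotated with trehalose biosynthesis, at 52944 bp. The 2 are therefore keyword matches and not all genes with such a role. Defense or stress terms had 4 (3.08% against 2.91%), including MELO3C023360.2 with 4 peaks, and photosynthesis or chloroplast terms had 4 (3.08% against 3.44%). At these distances an assigned gene is the one with the nearest listed start, and whether CmNOR acts on it was not measured.

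Few of the desert genes also had a peak near their start. Of the 190, 78 had at least 1 peak other than desert peaks, 100 such peaks in all, of which 75 were distal intergenic within 30 kb. The authors' promoter class, within 3 kb of a gene start, held a peak for 16 of the 190 (8.42%, 4.89 to 13.3), against 2105 of all 4510 genes (46.7%, 45.2 to 48.1). The 190 are in the list through a desert peak and need no other, while every other gene is in it through some other peak. How much of the gap this choice sets was not measured, so no shortage of promoter peaks is drawn from it. MELO3C018394.2 and MELO3C034428.2 were among the 16, with peaks 1720 and 962 bp upstream of their starts. So were the nitrate reductase gene MELO3C010444.2, with a peak over its start and desert peaks 34817 and 85053 bp upstream, and the ribosomal protein gene MELO3C014237.2, with a peak 48 bp upstream.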

How the data were processed

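The authors deposited a single table that gives each peak's coordinates and width, its assigned gene and the signed distance to the start of that gene, all in bp, together with GO terms and a class of location, per the file headers. MACS2 and deepTools were used, per the submitters' processing notes. No source used here names their versions, the calling threshold, the aligner, the build or how libraries were combined, so whether each peak was seen in both repeats is unknown. Desert peaks were rows classed "Distal Intergenic" with an absolute distance above 30000 bp. Distance and width were recomputed exactly in all 5493 rows, and 0 of the 4510 gene identifiers matched the RefSeq table (USDA_Cmelo_AY_1.0). The members, gene lists and tests were chosen with earlier results of these data known, and the blocks, position bins and gene-length counts after the table was opened. The GO keywords for phosphorylation, proteolysis and starch were narrowed after their matches were seen, because they took in dephosphorylation, peptidase inhibitor and glutamyl terms. The genes named are those of the 10 widest and 10 farthest peaks, the 10 with most desert peaks (ties by longer span), the 5 closest pairs, the densest 1 Mb windows and the 3 peaks on either side of the limit. Other genes of blocks, GO lists and the promoter class were chosen with their values in view. Width, position and spacing were compared by exact sign-flip permutation of the medians of the 12 numbered chromosomes, each with at least 5 desert peaks, with Benjamini-Hochberg adjustment over 3 comparisons. Chromosomes stand in for replicates, so the p-values describe this list and not repeat experiments. Positions are relative to the last listed peak. The test, spacing and block steps were tested on simulated data. The work used Python (3.11.15) with numpy (2.4.6), scipy (1.17.1), pandas (2.3.3) and, for figures, matplotlib (3.10.9).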

Additional observations from a re-analysis of the deposited data

How the results depend on the processing

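The limit sets the number of desert peaks, with 653 at 20 kb and 264 at 50 kb in place of 404. Counting 382 peaks by gene edge or 391 without chr0 moved it by less than 1.5 times, and the 68 runs sharing a gene became 63 runs of adjacent desert peaks. Of 49 alternatives to the 3 chromosome comparisons, 2 passed the adjusted threshold. These were the distance to the nearer end at a limit of 50 kb (-4.79 percentage points) and the spacing with 1 value per block (8680 bp), an alternative chosen after seeing the data. Signs turned under several settings. Against all other peaks, the width difference was -3.75 bp and the position difference 4.48 percentage points (exact permutation, adjusted p = 0.0894). At 20 kb, width gave -4.83 bp, position 0.442 percentage points and spacing -449 bp. At 50 kb, spacing gave -62.1 bp, and with 1 value per block position gave 3.99 percentage points. Leaving out 1 chromosome at a time gave -0.0909 to 5.73 bp for width, -3.86 to -2.22 percentage points for position and -597 to 2271 bp for spacing. The lowest width and spacing values were those without chromosome 2, and no difference passed (adjusted p at least 0.161). The cause of these changes was not tested. No paired analysis was possible because the list has no column for any library, so the repeat numbers of the 2 groups carry no values. Library depth is unknown.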
